A study of Mus musculus with 10 samples.

Results

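The genes of MHC class II antigen presentation were examined in sorted retinal cells after optic nerve crush (ONC). They are H2-Aa, H2-Ab1, H2-Eb1, Cd74, H2-DMa, H2-DMb1, H2-Oa, H2-Ob and Ciita, 9 of the 53974 genes in the RNA-seq table, and they were picked by name and not by their values. ATAC-seq regions of the comparison between groups were assigned to them where a region lay within 1000 bp of an end of the gene. All mice were C57BL/6 carrying Arid1a fl/fl, aged 8 to 10 weeks, and received AAV2 into the vitreous 2 weeks before ONC. The WT group received AAV2-GFP and keeps the floxed alleles intact (Arid1a fl/fl), and the cKO group received AAV2-Cre (Arid1a del/del). The study gives a higher titer for AAV2-GFP than for AAV2-Cre. It proposes that the viral infection and immune pathways among its results may relate to the titers and the procedures. Virus, titer and Arid1a genotype differ together between the groups and cannot be told apart here. The AAV2 vectors carried a CMV promoter, which does not limit expression to retinal ganglion cells (RGCs). Cells positive for Thy1.2 were sorted 3 days after ONC, with 4 to 5 retinas pooled per sample, into 3 WT and 3 cKO samples for RNA-seq and 2 WT and 2 cKO samples for ATAC-seq. RNA levels are in TPM, a share of all RNA scaled by gene length, so levels may be compared between genes.

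MHC class II molecules are pairs of an alpha and a beta chain that carry peptides from endocytosed protein to the surface, where CD4 T cells read them. They are made mainly by professional antigen-presenting cells (dendritic cells, B cells, macrophages), by microglia after activation, and by other cells under interferon gamma. In mice, I-A is built from H2-Aa and H2-Ab1, and I-E uses the beta chain of H2-Eb1. C57BL/6 mice lack a functional I-E alpha chain, whose gene is listed as the pseudogene H2-Ea-ps. Cd74 encodes the invariant chain that blocks the groove of the new molecule, H2-DM (H2-DMa with H2-DMb1) exchanges its remnant for a peptide, and H2-O (H2-Oa with H2-Ob) holds H2-DM back. Ciita, the class II transactivator, joins RFX, CREB and NF-Y on the X and Y boxes of these promoters.

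The promoter stretches of the members with a RefSeq promoter window are shown because they hold the elements through which the class II genes are transcribed together. RefSeq windows (GRCm38.p6, from 250 bases before to 50 after a start) were held for 6 of the 9 genes, in 7 windows, and H2-Ab1 and Ciita are among those without one. Each line gives the 120 bases before the start, 5′ to 3′ on the strand of the gene. Capitals mark the Y box core (GATTGG) and the X box (CCNAGNNAC, any 3 bases, then TG) where they match on the strand of the gene. H2-DMa is the stretch before the start that an ATAC-seq region overlapped, and it has no capitals since neither motif matched there. That stretch also overlaps an end of the neighbouring gene Brd2, so it need not be a promoter of H2-DMa alone.
H2-Aa (chr17:34287824-34287943, minus strand): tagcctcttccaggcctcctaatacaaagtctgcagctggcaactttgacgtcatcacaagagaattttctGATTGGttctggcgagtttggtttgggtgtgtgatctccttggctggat
H2-Eb1 (chr17:34305747-34305866, plus strand): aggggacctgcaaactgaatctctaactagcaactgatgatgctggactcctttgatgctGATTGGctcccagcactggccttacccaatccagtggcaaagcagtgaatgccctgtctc
H2-DMb1 (chr17:34153071-34153190, plus strand): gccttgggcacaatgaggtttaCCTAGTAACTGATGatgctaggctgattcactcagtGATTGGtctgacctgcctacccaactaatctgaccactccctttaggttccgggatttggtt
H2-Oa (chr17:34092259-34092378, plus strand): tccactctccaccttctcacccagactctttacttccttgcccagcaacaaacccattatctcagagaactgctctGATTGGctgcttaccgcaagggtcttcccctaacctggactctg
H2-Ob (chr17:34238785-34238904, plus strand): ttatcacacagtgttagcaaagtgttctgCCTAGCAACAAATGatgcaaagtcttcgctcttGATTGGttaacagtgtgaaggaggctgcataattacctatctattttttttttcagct
H2-DMa (chr17:34122712-34122831, plus strand): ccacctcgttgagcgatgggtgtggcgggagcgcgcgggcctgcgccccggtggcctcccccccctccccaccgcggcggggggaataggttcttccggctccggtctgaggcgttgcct

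The Y box core was found in at least 1 window of all 6 genes and in 16.1% of the 32851 windows of all genes, both strands being searched. On the strand of the gene it began 49 bases before the start of H2-Aa, 60 before that of H2-Eb1, 62 before that of H2-DMb1, 44 before that of H2-Oa and 58 before that of H2-Ob. H2-Eb1 had a further core on the opposite strand, from 35 to 30 bases before its start, which is left in lower case above. A core on the same strand beginning from 70 to 40 bases before the start stood in 1.88% of all windows, a range set after these positions were seen. H2-DMa had its match farther out, 199 bases before 1 of its starts. The X box letters matched in H2-DMb1 and H2-Ob, 98 and 91 bases before the start, and in 1.16% of all windows. The interferon elements searched beside them, GAS (TTCNNNGAA) and ISRE (GAAANNGAA), matched in none of the 7 windows and in 8.30% and 8.56% of all windows. A match is a description of letters, and a window without one says nothing about the factor.

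Before the class II values, the labels were checked against the data. Arid1a RNA was 18.8, 11.7 and 14.1 TPM in the WT replicates 1 to 3 and 18.8, 27.9 and 25.0 TPM in the cKO replicates, so it was not lower in the libraries labelled cKO (log2 fold change 0.66, adjusted p = 0.274 with limma). Before rounding, every cKO value of Arid1a lay above every WT value, as in 18.7% of all genes. A gene-level TPM sums over the whole transcript and need not show the loss of a part, but why Arid1a was not lower was not tested. Directions of RNA are given here by label. Of 12 RGC markers, Pou4f2 was at 0 in all libraries but cKO 3 and Pou4f3 in all but WT 1, neither passing 0.143 TPM, and Rbpms stayed at or below 6.43 TPM, whereas 7 rod markers summed to between 12273 and 47715 TPM. Slc17a6 was at 0.593 to 1.57 TPM and Pou4f1 at 0.0838 to 3.60 TPM. Sncg, Nefh, Nefm and Tubb3 reached at most 4.55, 5.78, 8.27 and 12.0 TPM, and Nefl was at 5.47 to 20.6 TPM. Of the list, only Thy1, the gene of the sort marker (51.9 to 129 TPM), and Isl1 (51.9 to 104 TPM) passed 20.6 TPM. In bulk samples such as these, fewer cells of a type and less RNA per cell cannot be told apart. WT replicate 2 was set apart by low lymphocyte RNA (597 TPM over 8 T cell markers, beside 1697 and 1363 TPM in WT 1 and WT 3).

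The summed RNA of the class II genes was lower in every library labelled cKO than in any WT library, and most of it came from Cd74, H2-Ab1, H2-Aa and H2-Eb1. Their sum was 9985, 6631 and 10649 TPM in WT 1, 2 and 3 and 3285, 1502 and 2423 TPM in cKO 1, 2 and 3, a mean of 9088 ± 2154 against 2403 ± 892 TPM (SD, n = 3 each), or 3.78 times as much in WT. The 9 genes took between 0.664% and 1.07% of all TPM in WT and between 0.151% and 0.329% in cKO. All 9 genes had a log2 fold change under 0, as did 38.9% of the 17555 genes tested, and their median was -1.81 beside 0.16 over all genes. None passed an adjusted p of 0.05 (lower in cKO, limma, 0% of all genes, and 1 gene or 0.00570% was called higher). At an unadjusted p under 0.05, 7 of the 9 were lower (6.45% of all genes), and in 6 of the 9 every cKO library lay below every WT library (7.18% of all genes). Over all genes, 64.9% of those passing that unadjusted threshold in either direction were higher in cKO. With each library scaled by its median of ratios this share was 44.4%, the median over all genes went from 0.16 to 0.01, and the members' median was -1.99, with all 9 still under 0.

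**Figure D1:**
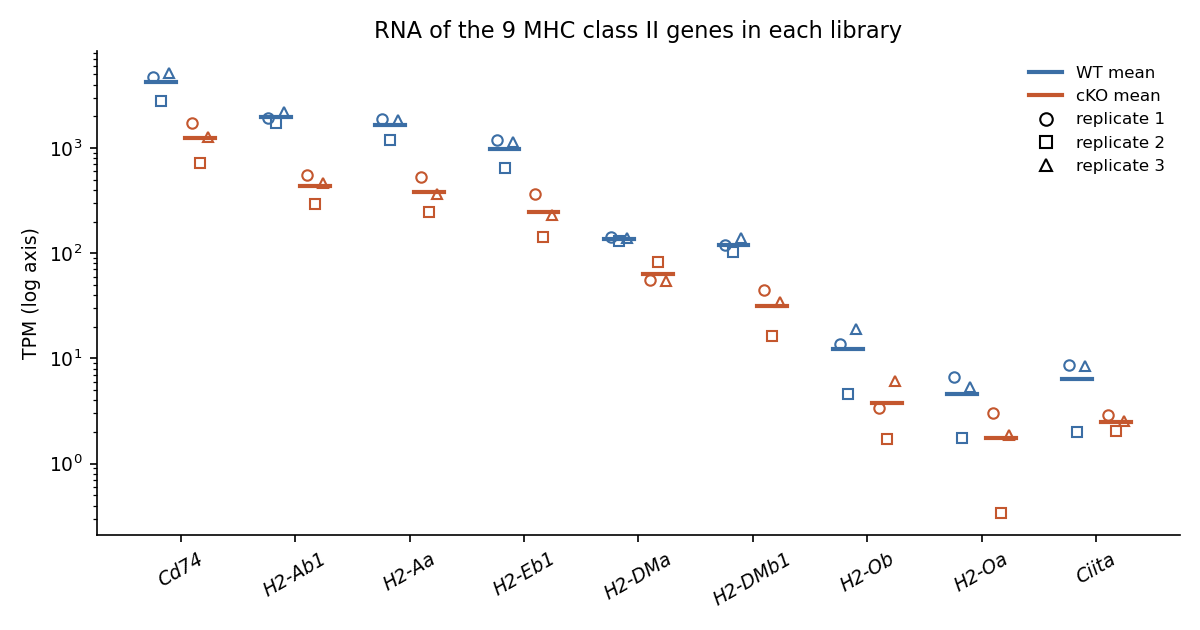
TPM of each of the 9 class II genes (log axis) in the WT (blue) and cKO (orange) RNA-seq libraries, with a symbol for each replicate and a bar for the group mean. The groups are separate for Cd74, H2-Ab1, H2-Aa, H2-Eb1, H2-DMa and H2-DMb1 and overlap for H2-Ob, H2-Oa and Ciita, where WT 2 (blue square) lies with or near the cKO libraries.

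Among the classical chains, H2-Ab1, the beta chain of I-A, was at 1935, 1735 and 2188 TPM in WT 1, 2 and 3 and at 555, 293 and 464 TPM in cKO 1, 2 and 3. Every cKO library was below every WT library, with means of 1953 ± 227 and 437 ± 133 TPM (SD, n = 3 each). The log2 fold change was -2.20 (SE 0.29, adjusted p = 0.124 with limma), and the exact two-sided permutation test gave p = 0.1, the smallest it can give with 3 against 3. H2-Ab1 was the 45th most abundant gene by mean TPM in WT and the 258th in cKO.

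H2-Aa, the alpha chain of I-A, was at 1889, 1192 and 1828 TPM in the WT replicates and 527, 249 and 363 TPM in the cKO replicates. The groups did not overlap, and the lowest values were those of WT 2 and cKO 2. Its means were 1636 ± 386 and 379.8 ± 139.5 TPM (SD, n = 3 each), a log2 fold change of -2.14 (SE 0.34, adjusted p = 0.124 with limma). The H2-Aa to H2-Ab1 ratio ran from 0.687 to 0.976 over the 6 libraries and its values overlapped between groups (0.976, 0.687 and 0.835 in WT, 0.95, 0.85 and 0.782 in cKO). In each of the 6 libraries H2-Aa was below H2-Ab1.

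H2-Eb1, the I-E beta chain, which has no alpha partner in this strain, was at 1180.1, 650.0 and 1135 TPM in WT and 367, 141 and 229.8 TPM in cKO. These groups did not overlap either, and replicate 2 was again the lowest of each. The log2 fold change was -2.06 (SE 0.41, adjusted p = 0.124 with limma). H2-Ea-ps, its pseudogene partner, was at 897, 665 and 798 TPM in WT and 108, 217 and 262 TPM in cKO, again without overlap (log2 fold change -2.08, SE 0.35, adjusted p = 0.124 with limma). By mean TPM in WT, H2-Ea-ps ranked 130th of all genes. Why a gene listed as a pseudogene had RNA at this level was not tested. A log2 fold change of -2 or lower, as in all 3 classical chains, was found in 1.00% of all genes.

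Cd74, the invariant chain, was the most abundant member in every library, at 4689.6, 2812 and 5186 TPM in WT and 1728, 716 and 1267 TPM in cKO. No cKO value reached the lowest WT value. Its mean was 4229 ± 1252 TPM in WT, the 14th highest of all genes, and 1237 ± 507 TPM in cKO, the 79th (SD, n = 3 each). The log2 fold change was -1.81 (SE 0.40, adjusted p = 0.124 with limma). Cd74 made up between 42.4% and 52.6% of the summed class II TPM. Relative to the classical chains it was higher in the libraries labelled cKO. The ratio of Cd74 to the sum of H2-Aa, H2-Ab1 and H2-Eb1 was 0.937, 0.786 and 1.01 in WT and 1.19, 1.05 and 1.2 in cKO, with no overlap and no test made.

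Of the peptide exchange pair, H2-DMb1, the beta chain, was at 119, 103 and 140.1 TPM in WT and 44.4, 16.3 and 34.2 TPM in cKO. All 3 cKO values were below all 3 WT values, and the log2 fold change was -2.0 (SE 0.37, adjusted p = 0.124 with limma). Its near-identical neighbour H2-DMb2, with which it can share reads, had a log2 fold change of -2.20 (SE 0.41, adjusted p = 0.124 with limma) at 80.6, 32.0 and 69.7 TPM in WT and 12.6, 7.87 and 15.4 TPM in cKO. How reads were divided between these paralogs is uncertain, but each was lower.

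H2-DMa, the alpha chain, was at 142, 131 and 139.7 TPM in WT, a mean of 138 ± 6.21 TPM (SD, n = 3), and at 55.1, 81.6 and 54.5 TPM in cKO (63.7 ± 15.5 TPM). The groups did not overlap, and the log2 fold change was -1.12 (SE 0.23, adjusted p = 0.124 with limma), the smallest among the 6 members without overlap. H2-DMa went its own way in cKO 2, where it had its highest cKO value and the other 8 members had their lowest cKO value. The ratio of H2-DMa to H2-DMb1 was 1.2, 1.27 and 0.997 in WT, 1.24 and 1.59 in cKO 1 and cKO 3, and 4.99 in cKO 2. With H2-DMb2 added to H2-DMb1, the ratio in cKO 2 was 3.37, still above the other libraries, which ran from 0.666 to 1.10. H2-DMa overlaps the gene Brd2 on the chromosome, and Brd2 RNA had a log2 fold change of 0.12 (adjusted p = 0.772 with limma).

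**Figure D2:**
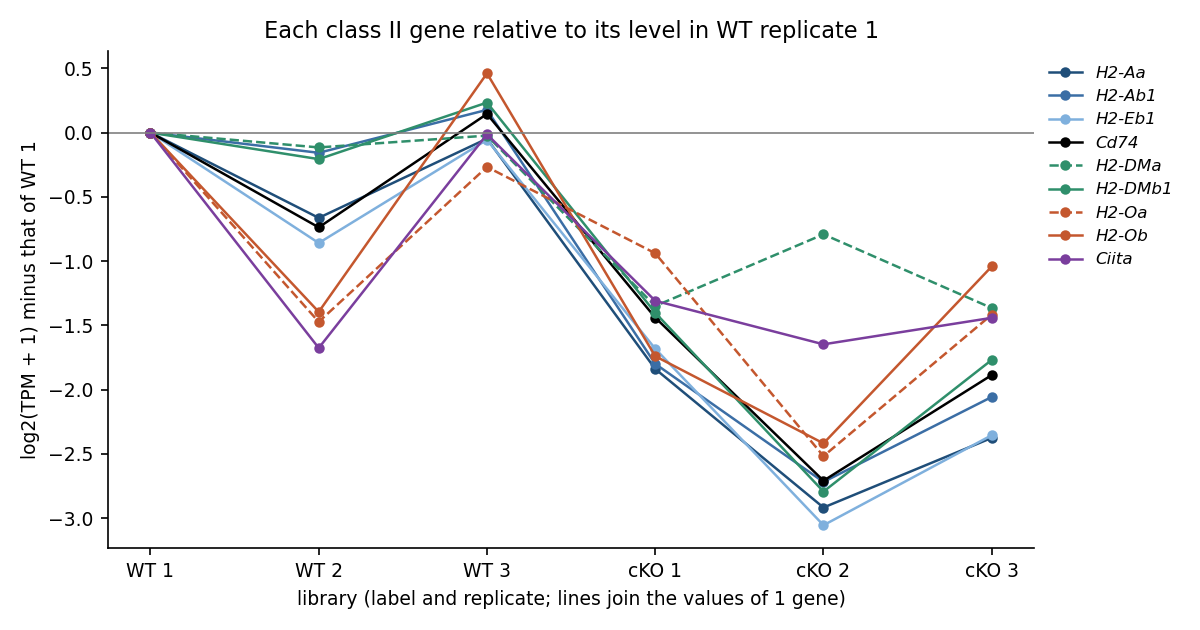
Difference of log2(TPM + 1) of each class II gene from its own value in WT 1, for the 6 RNA-seq libraries, with 1 line per gene. H2-Aa, H2-Ab1, H2-Eb1, Cd74 and H2-DMb1 run together and are lowest in cKO 2, H2-DMa (green dashes) is higher in cKO 2 than in cKO 1 and cKO 3, and Ciita, H2-Oa and H2-Ob are already low in WT 2.

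The H2-O chains, the inhibitors of H2-DM, were rare and did not separate the groups. H2-Ob was at 13.6, 4.55 and 19.1 TPM in WT and 3.37, 1.73 and 6.09 TPM in cKO, where WT 2 lay below cKO 3. Its log2 fold change was -1.42 (SE 0.57, adjusted p = 0.251 with limma). H2-Oa was at 6.69, 1.77 and 5.39 TPM in WT and 3.01, 0.342 and 1.88 TPM in cKO, where WT 2 lay below cKO 1 and cKO 3. The log2 fold change of H2-Oa was -1.05 (SE 0.55, adjusted p = 0.351 with limma), and a pseudocount of 1 shrinks the change of a gene at such levels.

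Ciita, the master switch of the pathway, was rare and did not separate the groups. It was at 8.59, 2.0 and 8.5 TPM in WT and 2.87, 2.06 and 2.53 TPM in cKO, so that WT 2 was below all 3 cKO libraries. The log2 fold change was -0.90 (SE 0.49, adjusted p = 0.370 with limma; exact permutation p = 0.4). Without WT 2 it was -1.46 (adjusted p = 0.0864 with limma), and that of H2-Ob was -1.97. H2-Aa RNA per Ciita RNA was 219.9, 596 and 215 in WT and 183, 121 and 144 in cKO. WT 2 therefore combined a Ciita level like that of the cKO libraries with H2-Aa at 1192 TPM, above the highest cKO value of 527 TPM.

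In order of mean TPM in WT the members were Cd74, H2-Ab1, H2-Aa, H2-Eb1, H2-DMa, H2-DMb1, H2-Ob, Ciita and H2-Oa. The library values overlapped between neighbours for H2-Ab1 and H2-Aa, H2-DMa and H2-DMb1, H2-Ob and Ciita, and Ciita and H2-Oa when set over all WT libraries. Within each WT library H2-Ab1 was nonetheless above H2-Aa, H2-Ob above Ciita and Ciita above H2-Oa. The order of the means was the same in cKO. There the values of H2-DMa (54.5 to 81.6 TPM) and H2-DMb1 (16.3 to 44.4 TPM) no longer overlapped, while those of H2-Aa (249 to 527 TPM) and H2-Eb1 (141 to 367 TPM) did.

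Over the 6 libraries, H2-Aa, H2-Ab1, H2-Eb1, Cd74 and H2-DMb1 moved together. Pearson's r of each with the mean log2 value of the 4 core genes (H2-Aa, H2-Ab1, H2-Eb1 and Cd74, a core gene being left out of its own mean) was between 0.98 and 1.00 for these, 0.81 for H2-DMa, 0.85 for H2-Oa and H2-Ob, and 0.77 for Ciita. These are descriptions over 6 libraries of 2 groups, which share any group difference. Of 10337 other genes with a mean of at least 10 TPM, 161 (1.56%) had an r above 0.95. The 10 highest were Limd2 (r = 0.9983), Phf11b, Acp5, Igsf6, Fermt3, Runx3, Selplg, Was, Ccr8 and Naa10 (r = 0.9913). Several are genes of blood cells: Was encodes the actin regulator of haematopoietic cells, Fermt3 the kindlin of blood cells, Selplg the ligand of P-selectin on leukocytes, Runx3 a transcription factor of T cells and Ccr8 a chemokine receptor of T cells. Limd2 was at 263, 155 and 260.4 TPM in WT and 75.8, 37.2 and 55.5 TPM in cKO, nearly the same profile as the classical chains at a lower level.

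The other genes of the pathway were lower in part. Of 43 listed, 40 were in the table and 38 passed the filter on low values, of which 29 had a log2 fold change under 0 and 9 above, with a median of -0.75 beside 0.16 for all genes. At an unadjusted p under 0.05, 17 were lower and 1 higher (6.45% and 11.9% of all genes), and none passed the adjusted threshold. For the genes of RFX, NF-Y and CREB, the DNA-binding partners of Ciita, no difference reached an unadjusted p of 0.05. Rfx5, Rfxank and Rfxap had log2 fold changes of -0.24, -0.78 and -0.44, Nfya, Nfyb and Nfyc of -0.26, 0.22 and 0.39, and Creb1 of 0.58, with adjusted p-values from 0.297 to 0.922 (limma). The list of class II transcription, to which these genes and those of the interferon gamma route belong, had 13 of 16 genes under 0 and 4 lower at an unadjusted p under 0.05. Irf8 (-1.73), Irf1 (-1.26) and Ifngr1 (-0.71) were among the 4. Jak1, Jak2 and Ifngr2 had log2 fold changes of -0.21, -0.26 and -0.21, with adjusted p-values from 0.678 to 0.758 (limma). Irf1 was at 189, 113 and 184 TPM in WT and 70.8, 40.6 and 98.0 TPM in cKO, without overlap. Ifng itself was at 159, 15.2 and 117 TPM in WT and 29.2, 6.88 and 20.5 TPM in cKO, where WT 2 again lay among the cKO libraries (log2 fold change -1.97, adjusted p = 0.303 with limma).

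**Figure D3:**
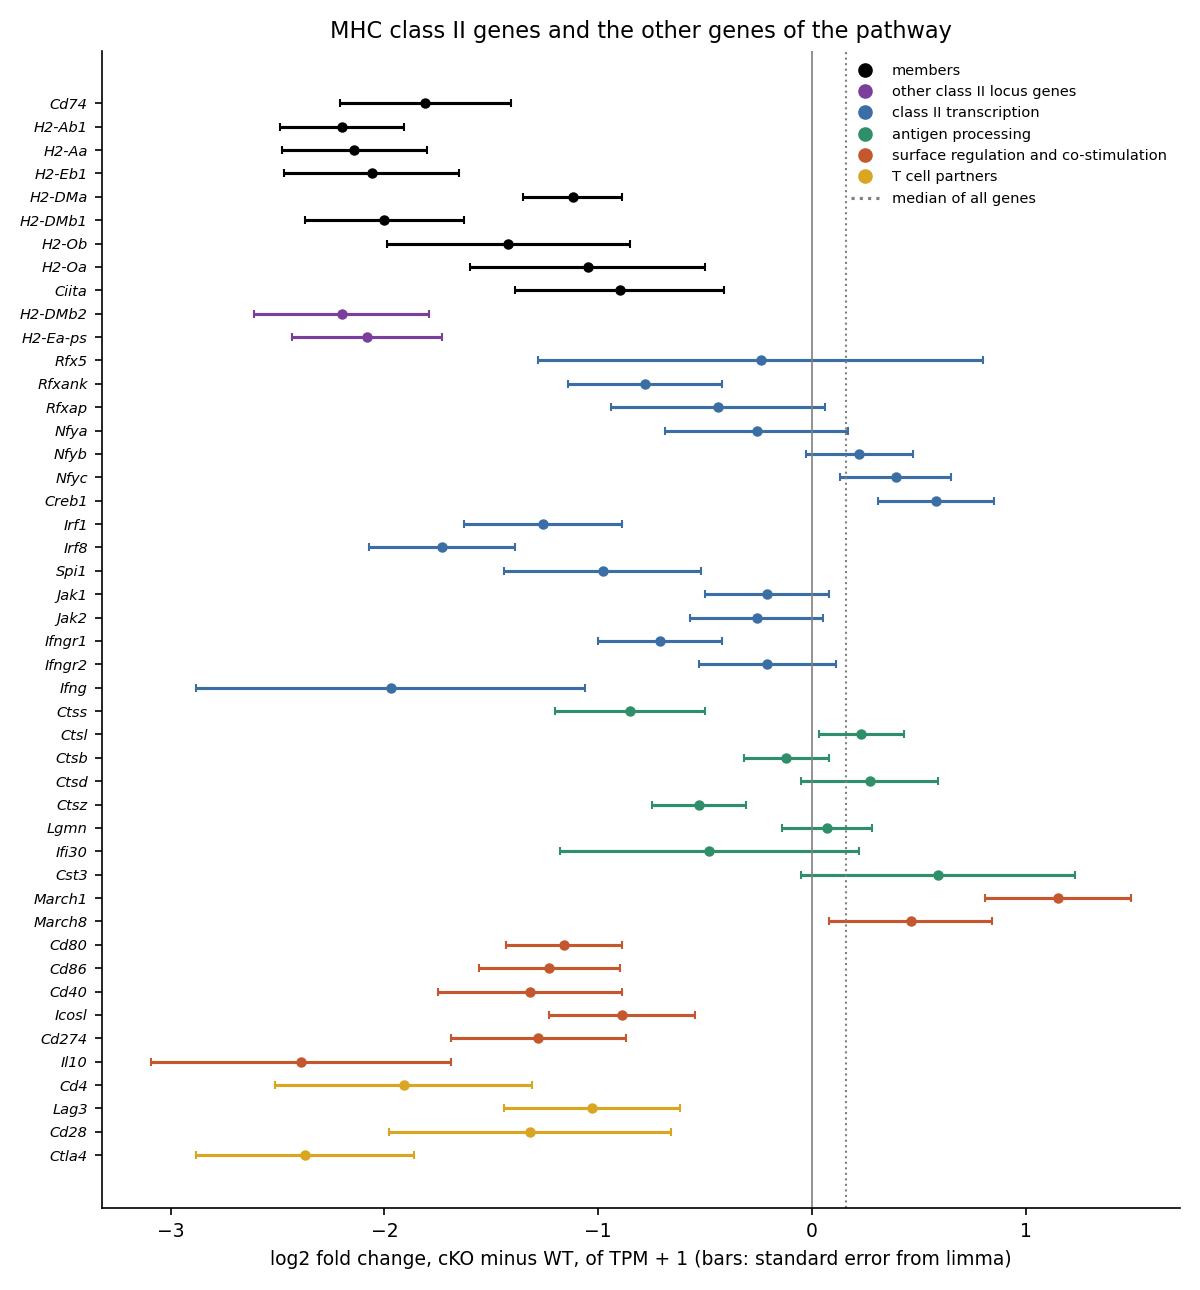
Log2 fold change of TPM + 1, cKO minus WT (points), with its standard error from limma (bars), for the 9 members and other pathway genes that passed the filter, coloured by list, with the median of all genes (0.16) dotted. The members lie between -2.20 and -0.90, the antigen processing genes lie between -0.85 and 0.59, and March1 (1.15) is the highest.

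Of the 8 antigen processing genes, 4 had a log2 fold change under 0 and 4 above, and 2, Ctss and Ctsz, were lower at an unadjusted p under 0.05. The endosomal proteases Ctsb and Ctsl and the asparaginyl endopeptidase Lgmn had log2 fold changes of -0.12, 0.23 and 0.07, with adjusted p-values from 0.579 to 0.883 (limma), and the 8 genes of the list summed to between 1619 and 2153 TPM in WT and between 1606 and 1974 TPM in cKO. Ctss, the protease that trims the invariant chain in antigen-presenting cells, was at 419, 239 and 457 TPM in WT and 251, 227 and 137 TPM in cKO, with WT 2 below cKO 1 (log2 fold change -0.85, adjusted p = 0.258 with limma). Ctsz, another endosomal cathepsin, was at 75.9, 53.4 and 60.4 TPM in WT and 44.4, 44.8 and 40.1 TPM in cKO, without overlap (log2 fold change -0.53, adjusted p = 0.259 with limma). The median of the 8 genes was -0.02.

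Among surface regulators, March1, the ubiquitin ligase that sends class II molecules and Cd86 from the surface to degradation, had the opposite direction. It was at 18.2, 12.7 and 25.5 TPM in WT and 30.6, 57.0 and 40.4 TPM in cKO, all cKO values being above all WT values (18.7% of all genes did so). The log2 fold change was 1.15 (SE 0.34, adjusted p = 0.167 with limma). The co-stimulatory ligands Cd80 and Cd86 and the receptor Cd40, through which T cells activate antigen-presenting cells, had log2 fold changes of -1.16, -1.23 and -1.32, each with all cKO values below all WT values (7.18% of all genes), and adjusted p-values from 0.125 to 0.184 (limma). Cd86, for example, was at 29.2, 19.5 and 39.0 TPM in WT and 14.9, 10.4 and 9.56 TPM in cKO. Icosl, Cd274 and Il10, also without overlap, had log2 fold changes of -0.89, -1.28 and -2.39 (adjusted p from 0.162 to 0.232 with limma). Of the 8 tested genes of this list 6 were thus under 0 (38.9% of all genes). The 2 above 0 were March1 and March8 (0.46, adjusted p = 0.546 with limma). On the T cell side, Cd4, the co-receptor for class II, was at 119, 42.4 and 92.7 TPM in WT and 19.6, 9.02 and 43.8 TPM in cKO, with WT 2 just below cKO 3 (log2 fold change -1.91, adjusted p = 0.180 with limma).

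Markers of several cell types moved with the class II genes, although none of those described passed an adjusted p of 0.05 (limma). Over all genes, 38.9% had a log2 fold change under 0 and 6.45% were lower at an unadjusted p under 0.05. The 8 T cell markers, all with a log2 fold change under 0 and 7 of them at an unadjusted p under 0.05, summed to between 597 and 1697 TPM in WT and between 148 and 370.3 TPM in cKO. B cell markers (7 of 7 tested under 0, 4 at an unadjusted p) summed to between 33.8 and 120.4 TPM in WT and between 11.9 and 23.1 TPM in cKO, with Pax5 at or near 0 in all libraries. Dendritic cell markers (7 of 8 under 0, 3 at an unadjusted p, Xcr1 under 1 TPM throughout) summed to between 45.2 and 117 TPM and between 31.1 and 37.3 TPM. Microglia and macrophage markers (11 of 13 under 0, 5 at an unadjusted p) summed to between 2329 and 3598 TPM in WT and to at most 1354 TPM in cKO. All 4 sums were lower in every cKO library than in any WT library. A sum of TPM is carried by its most abundant genes. In WT, Trac had a mean of 685 TPM beside 1219 TPM for the whole T cell sum. Lyz2 had 1237 beside 2852 TPM for microglia and macrophages, and Siglech, with overlapping groups, 32.1 beside 81.9 TPM for dendritic cells.

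Within the microglia and macrophage list the difference was uneven. Lyz2, the lysozyme of macrophages and other myeloid cells, was at 1278, 1069 and 1362 TPM in WT and 458, 307 and 310.2 TPM in cKO (log2 fold change -1.80, adjusted p = 0.124 with limma). Aif1, C1qa, C1qb and Cd68 had log2 fold changes of -1.54, -1.25, -1.24 and -1.13 (adjusted p from 0.124 to 0.142 with limma). With Lyz2 they were the 5 of 13 markers with every cKO value below every WT value (7.18% of all genes). P2ry12, a receptor of resting microglia, was at 22.7, 32.0 and 50.1 TPM in WT and 34.6, 34.1 and 38.3 TPM in cKO, with overlapping groups (log2 fold change 0.10, adjusted p = 0.891 with limma). It was among the 2 of 13 markers not under 0. Tmem119, Cx3cr1 and Csf1r, also with overlapping groups, had log2 fold changes of -0.71, -0.60 and -0.46 (adjusted p from 0.355 to 0.559 with limma). Rod markers ran the other way, 7 of 7 being higher at an unadjusted p under 0.05 (11.9% of all genes), from 12273 to 17093 TPM in WT and from 25258 to 47715 TPM in cKO. All 6 Mueller glia and astrocyte markers and all 4 tested endothelial and pericyte markers had a log2 fold change under 0 (38.9% of all genes). At an unadjusted p under 0.05 (limma), 2 and 1 of them were lower (6.45% of all genes). Their sums overlapped between groups (6409.9 to 12671 TPM in WT and 4476 to 10212 TPM in cKO, and 149.7 to 523 and 86.4 to 181 TPM). RGC markers summed to between 144 and 205 TPM in WT and between 227 and 253 TPM in cKO. Thy1, the gene of the sort marker, and Isl1 were the largest parts of that sum, with means of 109.7 and 83.7 TPM in cKO. Of 9 RGC markers tested, 6 had a log2 fold change above 0 and 3 under 0. The 3 were Rbpms (-0.41), Pou4f1 (-0.64) and Sncg (-0.83). At an unadjusted p under 0.05 (limma) 2, Thy1 and Tubb3, were higher and 0 lower.

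**Figure D4:**
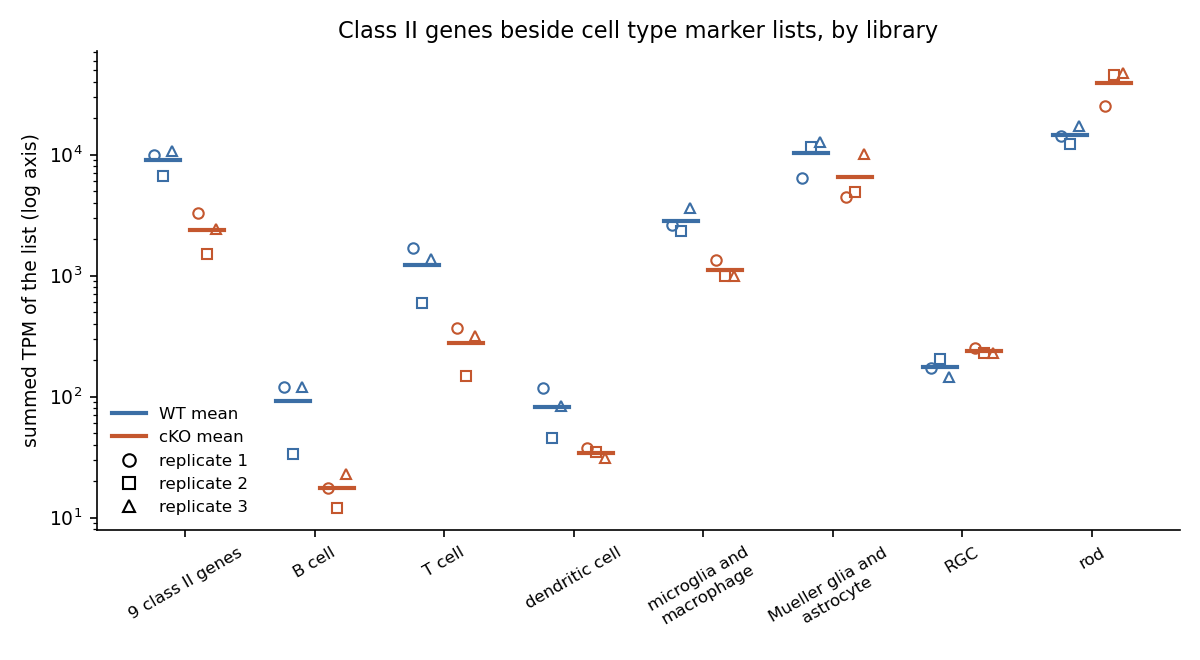
Summed TPM (log axis) of the 9 class II genes and of 7 cell type marker lists in each WT (blue) and cKO (orange) library, with a symbol for each replicate and a bar for the group mean. The class II, B cell, T cell, dendritic cell and microglia and macrophage sums are lower in cKO without overlap, and the rod sum is higher.

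Set against the lymphocyte markers, the class II sum did not separate the groups. Class II TPM per T cell marker TPM was 5.89, 11.1 and 7.81 in WT and 8.87, 10.1 and 7.69 in cKO, and per B cell marker TPM it was 82.9, 196 and 89.5 in WT and 188, 126 and 105 in cKO, both with overlapping groups. The ratio to dendritic cell markers, 85.2, 147 and 128 in WT and 88.0, 43.1 and 78.0 in cKO, overlapped as well. Overlap was not particular to immune cell markers. Per Mueller glia and astrocyte marker TPM the class II sum ran from 0.572 to 1.56 in WT and from 0.237 to 0.734 in cKO. The ratio to endothelial and pericyte markers, from 13.4 to 52.7 over all libraries, overlapped between groups too. Per microglia and macrophage marker TPM the class II sum was 3.80, 2.85 and 2.96 in WT and 2.43, 1.5 and 2.42 in cKO, without overlap. The ratios to rod and RGC markers, whose sums were higher in cKO, did not overlap either. The part of these cell types in the class II difference was not tested, and the levels of their markers and the group labels cannot be told apart in this design.

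ATAC-seq measures open chromatin by where a transposase can cut. In the comparison table, which gives the authors' log2 mean of normalized reads per group over 16600 regions and so no error, a region within 1000 bp of a gene end was found for 1 of the 9 members, H2-DMa, and for 51.5% of the 15518 tested genes with a position (63.0% of the 1779 with a mean of at least 100 TPM). That region, chr17:34118809-34119985, spans the 5′ end of the annotated H2-DMa gene (GRCm38.p6) and part of Brd2. Its value was 6.84 in WT and 3.0 in cKO, or 115 and 8.0 normalized reads, a log2 difference of -3.84. Both WT libraries had a peak there and neither cKO library did.

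A second region, chr17:34121377-34122813, lay inside H2-DMa and overlapped Brd2 and the H2-DMa stretch printed above, with values of 6.02 in WT and 3.5 in cKO (difference -2.52). The third, chr17:34135332-34135866, was the only one within H2-DMa alone, 3235 bp from its 3′ end, with values of 4.68 and 2.34 (difference -2.34). Each had a peak in WT 1 and WT 2 and none in cKO 1 or cKO 2. Over all regions 77.3% had a lower value in cKO, the median difference was -1.57, and 18.0% were lower by at least 3, so lower values at H2-DMa lay in the direction of most regions. The second region reached to an end of Brd2. Whether it and the region at the 5′ end belong to H2-DMa or to Brd2 cannot be told apart by position.

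**Figure D5:**
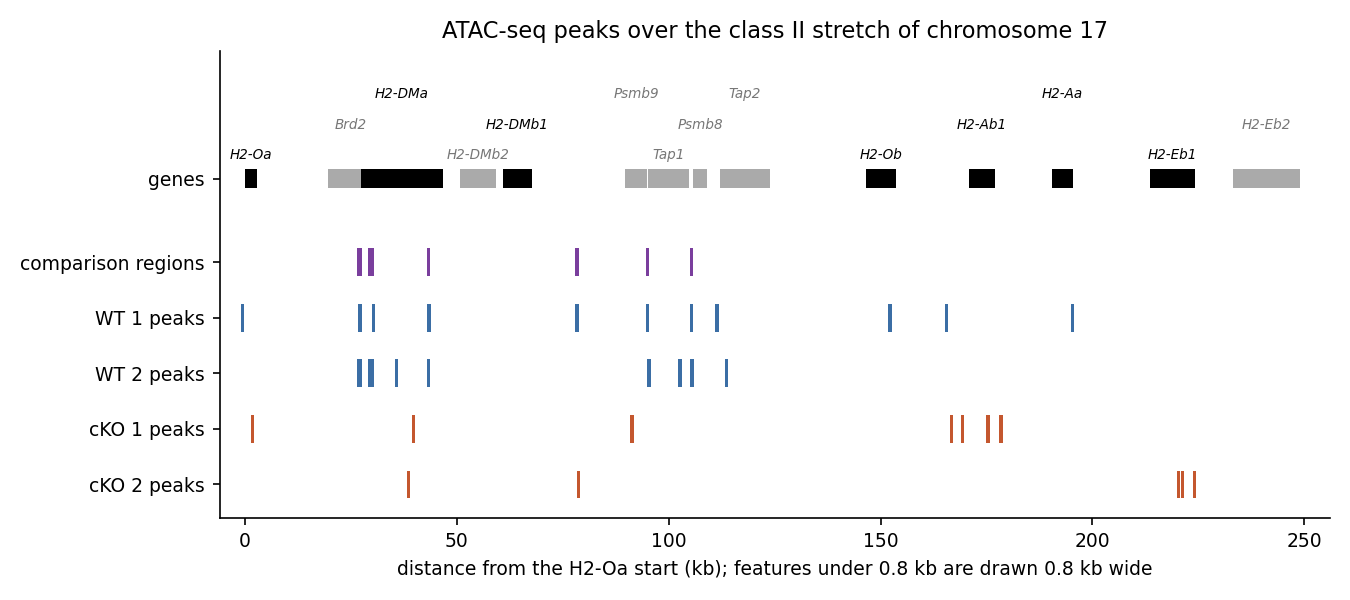
Genes (members black, others grey), regions of the ATAC-seq comparison and peaks of each library along the class II stretch of chromosome 17, in kb from the start of H2-Oa. The 3 comparison regions at H2-DMa have peaks in WT 1 and WT 2 and none in the cKO libraries, while the stretch from H2-Ob to H2-Eb1 holds no comparison region and peaks of single libraries alone.

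Of the peaks of single libraries within 1000 bp of a member's end, none but that at H2-DMa was shared by a second library. WT 1 had such a peak at 4 members (H2-Aa, H2-DMa, H2-Oa and Cd74) and at 65.1% of tested genes, and WT 2 at 1 (H2-DMa) and at 58.2%. In the cKO libraries 1 member each had one, H2-Ab1 in cKO 1 (13.6% of tested genes and 13.7% of those with a mean of at least 100 TPM) and H2-Eb1 at its 3′ end in cKO 2 (13.9% and 15.1%). The H2-Aa peak, chr17:34287227-34287541, lay inside the gene 282 bp from its 5′ end, and the H2-Oa peak, chr17:34091387-34091626, lay 753 bp outside its 5′ end. Of the 4 members with the highest RNA, Cd74, H2-Ab1, H2-Aa and H2-Eb1, 2 had a peak at an end in WT 1 and none in WT 2. Among genes with a mean of at least 100 TPM the shares were 74.3% and 68.9%. A count over 4 genes is too small to set them apart from these shares. H2-DMb1 had no peak within the gene or 1000 bp of its ends in any of the 4 libraries. At Ciita, the peaks found lay inside the gene, 1 in cKO 1 and 3 in cKO 2, and none was within 1000 bp of an end.

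Over the whole stretch from 10 kb before H2-Oa to 10 kb past H2-Eb1, WT 1 had 11 peaks, WT 2 had 8, cKO 1 had 7 and cKO 2 had 5, out of 76522, 42265, 55902 and 68317 in each whole library. The comparison table held 6 regions there, 3 at H2-DMa and 3 between H2-DMb1 and Tap2, the part that holds the class I processing genes Psmb9, Tap1 and Psmb8.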

How the data were processed

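RNA-seq covered 3 WT and 3 cKO libraries and ATAC-seq 2 of each, grouped by their labels, which number the replicates. Per the labels the authors used Salmon 1.0.0, Bowtie2 2.3.5.1, MACS2 2.2.5 and DESeq2 1.26.0 on GRCm38, and per the methods reads were trimmed and summed to genes with tximport. The deposited TPM of 53974 genes keep no sequencing depth (libraries sum to between 995278 and 999315), so no counting error can be given, and errors are SDs over libraries. The deposited ATAC-seq table gives log2 mean normalized reads per group (DiffBind), and peak lists give positions. Fold changes and p-values of the authors' own comparisons (RNA-seq and ATAC-seq) were held and not used.

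The 17555 genes that reached a TPM of 1 in 3 or more of the 6 libraries were compared as log2(TPM + 1) by a linear fit with trended empirical Bayes moderation (limma 3.58.1, R 4.3.3, two-sided), adjusted by Benjamini-Hochberg over all 17555 at 0.05, with the scripts tested on simulated data. The count test of the study was not run since TPM are not counts. Single genes had exact permutation tests (scipy 1.17.1, Python 3.11.15). The members, gene lists and motifs were chosen with earlier results of these data known. The values of 1 listed gene are not reported here. Genes named are the members, Arid1a, genes of these lists and the 10 genes most like the core members; Brd2 and H2-DMb2 neighbour members, Brd2 being added after its values were seen. RNA replicate numbers were checked for pairing from deviations within groups. The correlation across genes between libraries of like number was 0.334, 0.101 and 0.425, and between unlike numbers it ran from -0.386 to 0.193. The value for number 2 lay within the range of unlike numbers, so pairing is uncertain, and the numbers were run as a block only as an alternative. ATAC-seq regions and peaks were placed by RefSeq gene positions on GRCm38.p6 (overlap of at least 1 bp, counted from 1). Alternatives were a pseudocount of 0.1, no filter, a filter on mean TPM (5 or more), median-of-ratios scaling, the block, no trend, leaving out each library, a window of 3000 bp, and peaks wholly inside the window.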

Additional observations from a re-analysis of the deposited data

How the results depend on the processing

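All members tested kept a log2 fold change under 0 and stayed above an adjusted p of 0.05 (limma) in every alternative, H2-Oa and Ciita being dropped by a mean TPM of at least 5. The replicate block moved the members' adjusted p-values to between 0.0585 and 0.251, with 8 at an unadjusted p under 0.05, and changed no member's call. Over all genes 1 was called lower under the block and 0 to 1 without 1 library (1 without WT 2, cKO 1 or cKO 3), and 4 were called higher with no trend. The members' median ran from -2.10 to -1.47 without 1 library, the extremes being without cKO 1 and without cKO 2, and was -2.08 without WT 2. Between 6 and 9 members were lower at an unadjusted p, all 9 only without WT 2. Ciita ran from -1.46 (without WT 2) to -0.62 and H2-Oa from -1.56 to -0.60 (without cKO 2). Windows of 3000 bp gave 2 members with a peak in WT 2, 2 in cKO 1 and 2 in cKO 2, and asking for the whole peak left 0 in cKO 1. For ATAC-seq, no paired analysis was possible because the table holds 1 mean per group. Arid1a stayed above 0 (0.49 to 0.83, adjusted p from 0.247 to 0.646 with limma). Nothing in TPM shows depth, so low values such as those of Ciita, H2-Oa and H2-Ob have an unknown counting error.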
